A study of Sus scrofa with 9 samples.

Results

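Cumulus cells are the somatic cells that enclose the oocyte, and a cumulus-oocyte complex (COC) is an oocyte with its cumulus. The comparison described here is FSH-stimulated against unstimulated control cumulus cells of the pig. It was measured directly on 3 of the 9 arrays of the series, those that carried control and FSH RNA together, 1 for each biological replicate. COCs aspirated from antral follicles of slaughtered premature crossbred gilts and pooled were cultured for 3 h in serum-supplemented medium, either without stimulation (control) or with human recombinant FSH at 100 ng/ml, and the oocytes were then stripped off. A group stimulated with AREG and EREG, ligands of the EGF receptor (100 ng/ml of each), is used only as a bridge between the other two.

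The 9 arrays formed 3 loops of 3 arrays. In each loop, control, AREG/EREG and FSH RNA of the same replicate number were hybridized pairwise, with Alexa Fluor 647 (red) and Alexa Fluor 555 (green) as dyes. FSH was red and control green on the direct arrays of replicates 1 and 3, and the dyes were swapped in replicate 2. Every loop therefore gave FSH over control by separate routes. The direct ratio came from the array that carried both RNAs, and the indirect ratio was the sum of FSH over AREG/EREG and AREG/EREG over control from the other arrays. One label was ambiguous: in replicate 3, the treatment text for AREG/EREG RNA on its array with control describes FSH, whereas all other labels of that array give AREG/EREG and were followed. This array enters only the indirect ratio. The oligonucleotide array held 20736 spots, of which 19980 carried 19941 transcript probes. On the direct arrays, control RNA was well above background at 82.1%, 88.3% and 95.6% of probe spots in replicates 1 to 3, and FSH RNA at 77.1%, 88.1% and 85.5%. All ratios below are log2 of FSH over control.

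FSH binds a G protein-coupled receptor, FSHR, which raises cAMP and activates protein kinase A. In the follicle, the response before ovulation is started by a surge of luteinizing hormone. In cultured COCs, the FSHR pathway leads cumulus cells to secrete a hyaluronan-rich matrix (cumulus expansion). It also leads them to produce EGF-like ligands and to begin the change towards progesterone synthesis. Cells that differentiate in this way are also known to leave the cell cycle.

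Of 19492 transcripts that could be tested, 7165 (36.8%) were called at an adjusted p under 0.01 (limma, Benjamini-Hochberg), and the overexpressed transcripts made up 17.5% and the underexpressed ones 19.2% of those tested. Most of these differences were small. The called overexpressed transcripts had a median log2 ratio of 0.38 and the underexpressed ones of -0.53, and 62.7% of all calls were under 1.5-fold. Above 2-fold there were 447 overexpressed and 568 underexpressed transcripts. Above 4-fold the order turned, with 98 overexpressed and 38 underexpressed transcripts, and above 8-fold there were 22 and 8. Of the 6856 called transcripts with a value on all 3 direct arrays, 6763 (98.6%) had the same sign on each of them, against 62.7% of all 17877 transcripts measured on these arrays. The same arrays entered the model that made the calls, which favours transcripts with even ratios, so this share is not independent support. The model treated the arrays as independent, although they share RNA samples. With the replicate number as a block, 2233 transcripts were called overexpressed in place of 3417, and 2863 underexpressed in place of 3748. With 1 value per RNA sample and no block, 1220 were called in all.

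The share of calls depended on spot brightness. In the dimmest of 4 equal groups of transcripts, with a mean log2 intensity of 6.93, 15.3% were called. The share was 39.3%, 49.8% and 42.6% in the following groups, the brightest of which had a mean of 11.6. The median size of the log2 ratio was 0.08 in the dimmest group and 0.17, 0.24 and 0.22 in the others, while the median standard error lay between 0.06 and 0.07 in every group. The constant of 50 that was added to both channels in the background correction makes ratios of dim spots smaller.

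The direct and indirect ratios, which shared RNA samples but no array, ran together in all replicates. Across transcripts their correlation was 0.70 in replicate 1, 0.85 in replicate 2 and 0.88 in replicate 3. In transcripts well above background in every control and FSH channel it was 0.85, 0.94 and 0.95. These are correlations across transcripts of the same RNA samples, and transcripts are not independent replicates. Replicate 1, whose arrays were scanned on a different day from the other 6, was the least even of the 3, with a median difference between the routes of 0.21 against 0.14 in replicate 2 and 0.15 in replicate 3. A dye effect of a probe enters the direct and indirect ratio with opposite sign and could therefore be estimated. It was called for 212 of 19509 transcripts (1.09%), and it exceeded the FSH effect in 16 (0.223%) of the 7165 called transcripts.

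**Figure D1:**
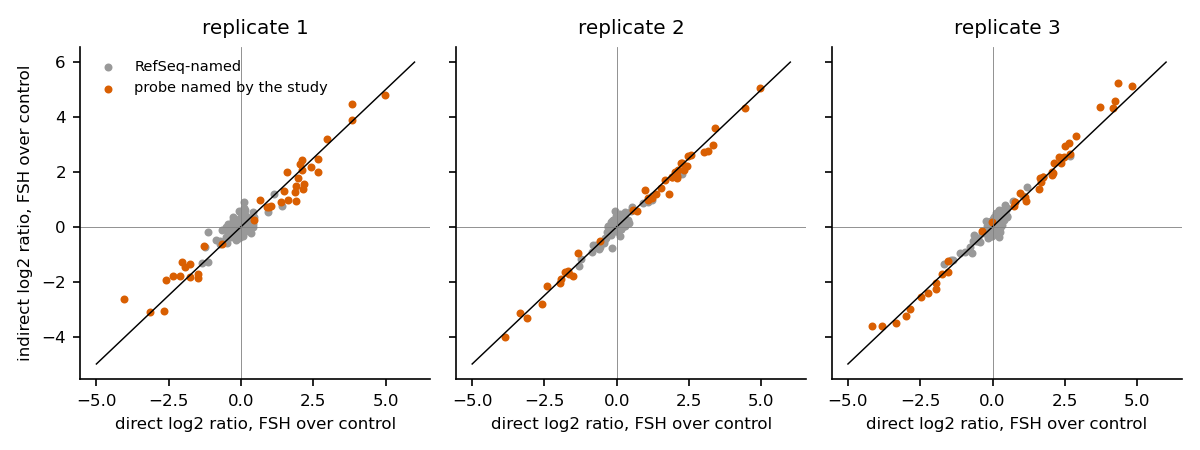
Log2 ratio of FSH over control on the direct array (x axis) and by way of AREG/EREG (y axis) in each replicate, for genes whose probes the study names (orange) and the RefSeq-named probes (grey); the line marks equality. Points lie along the line in all 3 panels, and more widely around it in replicate 1.

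Genes could be named in 2 ways. The study pairs 45 probes with genes that it followed up, 39 of them chosen from this comparison on these arrays, so their direction is not independent evidence. Another 182 probes carry a RefSeq transcript that a current annotation gives a symbol (*JUN* belongs to both sets), and these were not chosen by their response. Of the 45 genes, 30 were called overexpressed and 13 underexpressed, and *CTGF* and *NR5A2* did not pass the test. The study's real-time PCR of this comparison did not bear out all of these calls. By PCR, *RBKS* and *TNFRSF12A* were lower and *FOS* was higher after FSH, opposite to the arrays. No significant difference was found by PCR for *ABCC5*, *ANXA1*, *ANXA2*, *JUN*, *IRS1*, *FOXO1*, *HS3ST1*, *PCNA*, *PNRC1* and *TRIB2*. Of the 170 RefSeq-named transcripts that could be tested, 26 were overexpressed and 17 underexpressed, that is 25.3% against the 36.8% of all transcripts, and their median log2 ratio was 0.04. The median over all tested transcripts was 0.02. Levels below are normalised log2 intensities of each RNA sample, averaged over its 2 channels. Among the 38 of the 45 genes with a level in all 6 samples, they overlapped between the FSH and control samples only for *NR5A2*, and 24 genes lay higher and 13 lower after FSH in every sample. Of all 15793 transcripts with such levels, 16.5% lay higher and 19.6% lower in this way, 36.1% in all. For bulk RNA, fewer cells of a type and less RNA per cell cannot be told apart.

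**Figure D2:**
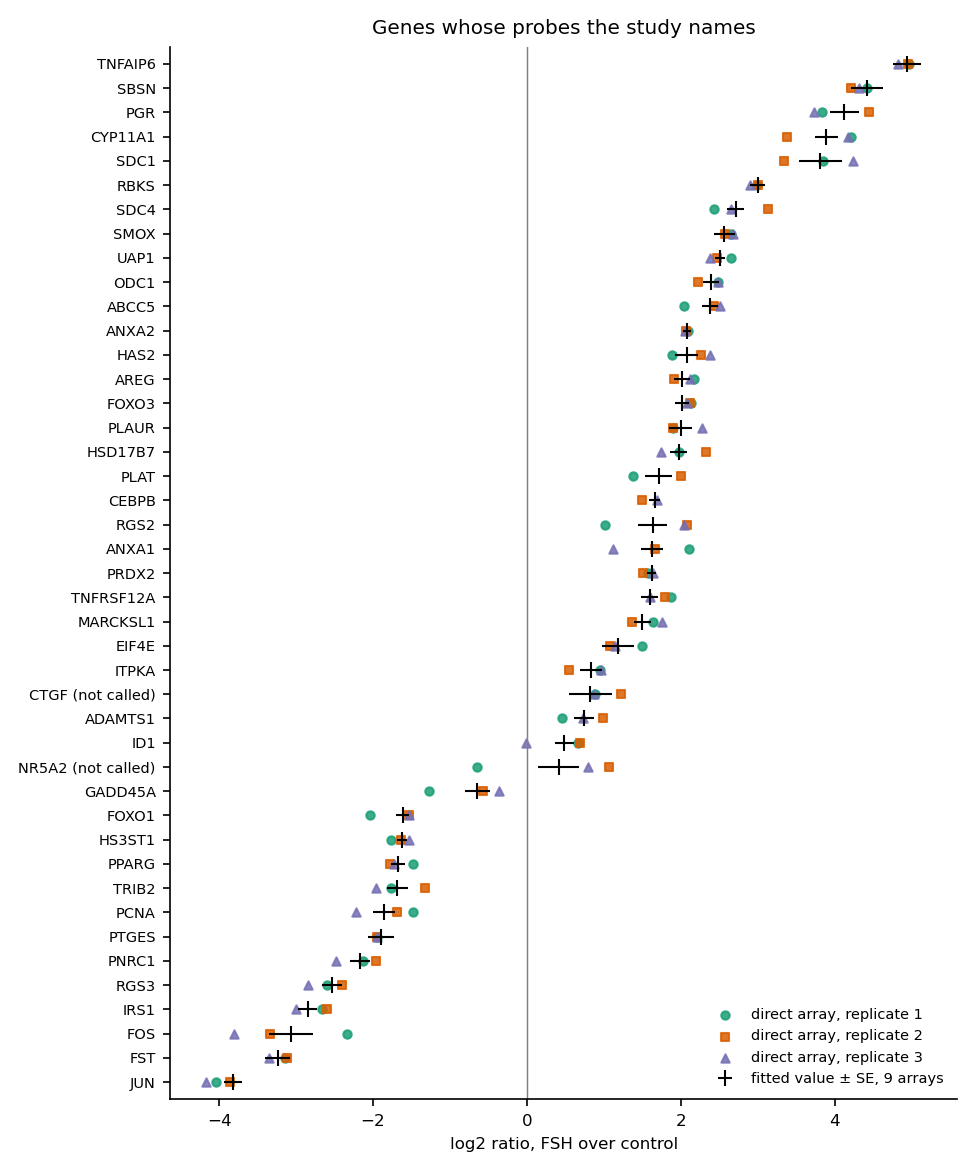
Log2 ratio of FSH over control for genes whose probes the study names and that are reported here. Coloured symbols are the 3 direct arrays and the black bars the value fitted to all 9 arrays ± SE. *TNFAIP6* at 4.94 and *JUN* at -3.82 are the ends of the range, and the arrays fall on both sides of zero only for *NR5A2* and *ID1*.

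Of the expanding matrix, *TNFAIP6*, *UAP1*, *HAS2* and *ADAMTS1* were overexpressed. From the list for cumulus expansion and hyaluronan, 5 of 25 genes had a named probe, and 4 were called higher, with a median log2 ratio of 2.08 over the 5, against 17.5% of all transcripts called higher. All 4 belong to the 45 genes that the study named, so this count is not independent evidence. *TNFAIP6* encodes the protein that transfers heavy chains to hyaluronan and so cross-links it. Its direct ratios were 4.97, 4.96 and 4.83 in replicates 1 to 3, and the indirect ones 4.78, 5.07 and 5.13. The levels were 8.41, 8.09 and 7.96 in the control samples and 13.36, 13.21 and 13.03 in the FSH samples. All FSH samples thus lay far above all controls, and the fitted difference was 30.8-fold (log2 4.94 ± 0.18 SE, adjusted p = 8.24e-08, limma). *UAP1* makes UDP-N-acetylglucosamine, a building block of hyaluronan, and was 5.70-fold overexpressed (log2 2.51 ± 0.06) with direct ratios of 2.66, 2.48 and 2.39. *HAS2*, the hyaluronan synthase of cumulus cells, had direct ratios of 1.89, 2.27 and 2.38 and a fitted ratio of 2.08 ± 0.15. It is a dim probe, with control levels of 7.50, 6.86 and 6.91, and its ratio was 2.72 without the added constant and 2.91 with the processed signals of the image analysis. A further probe, of the transcript that RefSeq lists as *SHAS2*, had a value on 1 direct array only (1.09) and could not be tested.

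*ADAMTS1*, a secreted protease that cleaves the proteoglycan versican, was weaker. Its direct ratios were 0.45, 0.99 and 0.73, and the probe was well above background in 4 of 6 control channels and in all FSH channels. The fitted ratio was 0.74 ± 0.13 (adjusted p = 0.00126), it lost its call without replicate 3 (adjusted p = 0.0119), and it was 1.33 with the processed signals. *HAPLN1*, which links hyaluronan to proteoglycans, did not pass the test (0.15 ± 0.04, adjusted p = 0.0168), though it did with no background correction (0.16, adjusted p = 0.00527).

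The syndecans *SDC1* and *SDC4*, transmembrane proteoglycans that carry heparan sulfate, were overexpressed. *SDC1* had levels of 10.56, 10.85 and 10.20 in the controls and 14.48, 14.22 and 14.73 after FSH, that is 14.0-fold more (log2 3.81 ± 0.28, adjusted p = 3.61e-06). *SDC4* had levels of 7.98, 7.72 and 7.62 in the controls and 10.43, 10.89 and 10.52 after FSH, that is 6.55-fold more (2.71 ± 0.11, adjusted p = 1.41e-07). The FSH and control samples were separate for both. *HS3ST1*, which adds a sulfate group to heparan sulfate, went the other way, with direct ratios of -1.77, -1.64 and -1.53 and a 3.09-fold lower level after FSH (adjusted p = 8.79e-08). These are all the genes of the syndecan and heparan sulfate list, 3 of 16, that had a named probe, and all belong to the study's 45. Of all transcripts, 17.5% were called higher and 19.2% lower. *CTGF*, a matricellular protein that binds heparan sulfate, had direct ratios of 0.88, 1.23 and 0.87 but indirect ratios of only 0.73 and 1.05 in replicates 1 and 2 and none in replicate 3. Its fitted ratio of 0.83 ± 0.28 did not pass (adjusted p = 0.0364), whereas it did on the direct arrays alone (1.05, adjusted p = 0.000179) and without replicate 2 (0.73, adjusted p = 0.00484).

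From the plasminogen system, *PLAUR*, the receptor of urokinase, rose 4.00-fold (1.90, 1.90 and 2.28 on the direct arrays), and *PLAT*, tissue plasminogen activator, 3.28-fold (1.38 and 2.00 on the direct arrays of replicates 1 and 2). Of 27 genes of the plasminogen and coagulation list, 4 could be tested and 3 were overexpressed (17.5% of all transcripts were called higher), all 3 of them among the study's 45.

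Of 38 genes on the list for synthesis and receptors of progesterone and oestrogen, 8 could be tested, and 4 were overexpressed (*PGR*, *CYP11A1*, *HSD17B7* and *TSPO*) and none underexpressed, against 17.5% called higher and 19.2% called lower of all transcripts. The first 3 of these belong to the study's 45 genes. *PGR*, the progesterone receptor, had levels of 7.84, 8.04 and 8.03 in the controls and 12.10, 12.67 and 11.94 after FSH. The fitted difference was 17.5-fold (log2 4.13 ± 0.18, adjusted p = 2.09e-07), and no FSH sample came near a control. *CYP11A1*, the enzyme that cleaves the side chain of cholesterol to give pregnenolone, had direct ratios of 4.22, 3.39 and 4.18 and rose 14.9-fold. *TSPO*, an outer mitochondrial membrane protein linked to cholesterol import, is a RefSeq-named probe. Its direct ratios were 1.23, 1.23 and 1.20, and the indirect ones 0.98 and 1.43 in replicates 2 and 3. It rose 2.34-fold (adjusted p = 3.53e-05) and was not called on indirect arrays only (1.18, adjusted p = 0.0469). *HSD17B7*, an enzyme of oestradiol and cholesterol synthesis, rose 3.93-fold, with direct ratios of 1.98, 2.33 and 1.74. The genes of the list that did not pass were *CYP21A2* (0.04), *ESR2* (0.11), *SULT1E1* (0.16) and *NR5A2*.

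*NR5A2*, a nuclear receptor that drives steroidogenic genes in granulosa cells, differed in direction between replicates. Its direct ratios were -0.65, 1.06 and 0.79, and the indirect ones -0.64, 1.05 and 0.90. The sign of replicate 1 was thus the same by both routes. Its FSH sample had a level of 10.42 and its control 11.18, whereas the other FSH samples, at 12.09 and 12.45, lay above all controls. The fitted ratio was 0.41 ± 0.27 (adjusted p = 0.227), and without replicate 1 it was 0.94 (adjusted p = 0.000164). The part of the scan day, which separates replicate 1 from the others, was not tested.

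**Figure D3:**
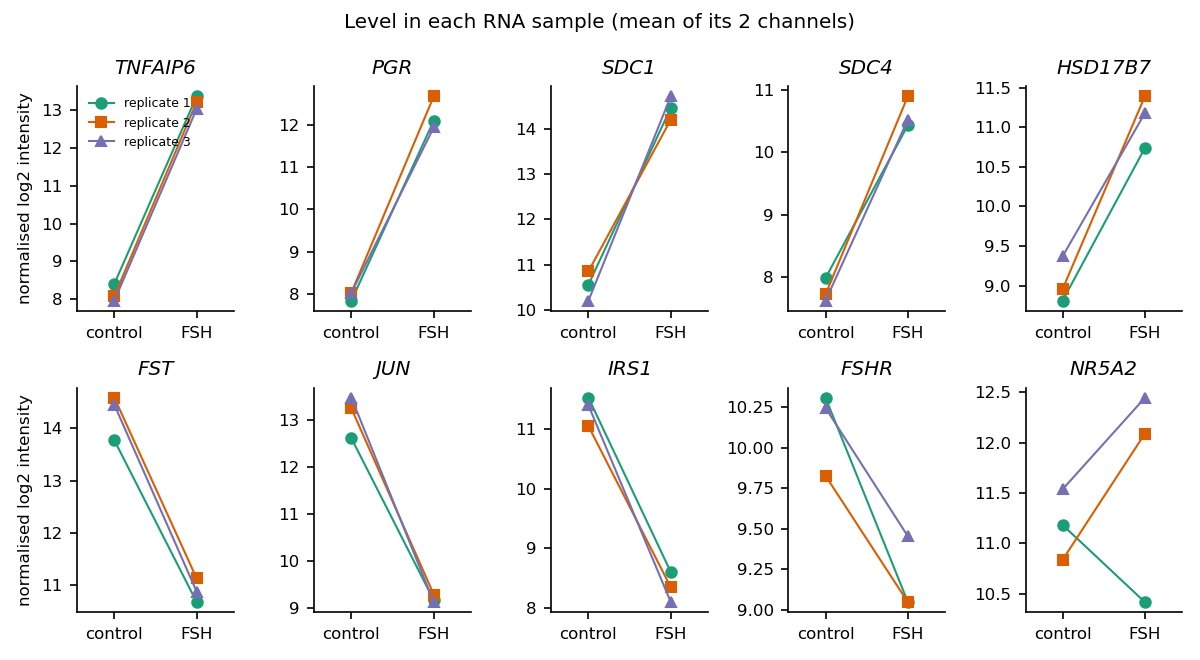
Normalised log2 intensity in the control and FSH samples of each replicate, joined by a line, for 10 genes; each panel has its own scale. In 9 panels the lines run the same way and the groups are apart, and in that of *NR5A2* replicate 1 falls from 11.18 to 10.42 while the others rise.

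The receptor of FSH was itself underexpressed. *FSHR* had control levels of 10.31, 9.83 and 10.24 and FSH levels of 9.05, 9.05 and 9.45. The samples did not overlap, and the fitted difference was 1.85-fold (log2 -0.89 ± 0.08, adjusted p = 1.9e-05). The 2 regulators of G protein signalling with a named probe went in opposite directions. *RGS2* rose 3.10-fold, with direct ratios of 1.02, 2.08 and 2.05, and *RGS3* was 5.79-fold lower, with direct ratios of -2.60, -2.40 and -2.85. *GNAS*, the G protein subunit that couples the receptor to adenylate cyclase, did not pass (0.26 ± 0.08, adjusted p = 0.0307), though it did with outlier spots kept (adjusted p = 0.00751) and under median centring (0.33, adjusted p = 0.00565). From this list 4 of 29 genes had a named probe. *AVPR2*, the vasopressin receptor that also signals through cAMP, is a RefSeq-named gene outside the list. It had direct ratios of 1.15, 1.23 and 1.05 and rose 2.21-fold (adjusted p = 1.28e-07). *AREG*, the 1 of 13 genes of the EGF list that could be tested, rose 4.04-fold with direct ratios of 2.18, 1.91 and 2.12 and belongs to the study's 45. Of 49 growth factors, cytokines and their receptors, 4 could be tested and 1 was overexpressed, against 17.5% of all transcripts. It was *FGF9*, 3.07-fold higher with direct ratios of 1.40, 1.09 and 2.67, whereas the cytokine *LIF* (0.07) and the receptors *LEPR* (0.01) and *PRLR* (0.11) did not pass.

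Of 34 genes of the TGF-beta, BMP and activin list, 4 could be tested, and *FST* and *INHA* were lower after FSH, against 19.2% of all transcripts called lower. *FST* and *CTGF* belong to the study's 45, so this count is not independent evidence. *FST*, follistatin, which binds and neutralises activin, had control levels of 13.77, 14.58 and 14.45 and FSH levels of 10.68, 11.13 and 10.87. It was 9.43-fold lower (log2 -3.24 ± 0.16, adjusted p = 3.96e-07), with every FSH sample below every control. *INHA*, the inhibin alpha subunit, had direct ratios of -0.87, -0.44 and -1.45. Its fall of 1.82-fold (adjusted p = 0.00388) was uneven and was not called with the replicate block (adjusted p = 0.0156) or without replicate 1 (adjusted p = 0.0308). *ACVR2B*, an activin receptor, had a ratio of 0.08 and did not pass, and neither did *CTGF* (0.83, described above).

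Transcription factors were split. On the arrays the AP-1 subunits were strongly underexpressed, *JUN* by 14.2-fold (log2 -3.82 ± 0.11, adjusted p = 3.01e-08) and *FOS* by 8.36-fold (-3.06 ± 0.28, adjusted p = 1.62e-05). The study's real-time PCR of this comparison instead found *FOS* higher after FSH and no significant difference for *JUN*. The spread of the array values lay in the control samples. *FOS* levels were 9.66, 10.96 and 11.37 in the controls but 7.54, 7.60 and 7.44 after FSH, and those of *JUN* were 12.61, 13.25 and 13.47 against 9.17, 9.29 and 9.12. *KLF4*, a zinc finger factor of the same immediate early list, did not pass (0.21, adjusted p = 0.0379), but did without replicate 1 (0.24, adjusted p = 0.00754). Of 39 other transcription regulators of the follicle, 9 could be tested, 4 were overexpressed and 3 underexpressed (17.5% and 19.2% of all transcripts), and their median log2 ratio was 0.41. Of these 9 genes, 8 belong to the study's 45. *FOXO3* rose 4.03-fold and the related *FOXO1* was 3.07-fold lower. The direct ratios of *FOXO3* lay between 2.08 and 2.14, and those of *FOXO1* between -2.05 and -1.53. *CEBPB*, a leucine zipper factor of the ovulatory response, rose 3.17-fold on the arrays of replicates 2 and 3 and had no value on the direct array of replicate 1. *PPARG* was 3.19-fold and the nuclear receptor coactivator *PNRC1* 4.50-fold lower. *ID1*, an inhibitor of helix-loop-helix factors, was called with a small ratio of 0.49 ± 0.12 (adjusted p = 0.00844), but its direct ratio in replicate 3 was -0.01, and the call ended without replicate 1 (adjusted p = 0.112), without replicate 2 (adjusted p = 0.0929) or with the replicate block (adjusted p = 0.0277).

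Insulin signalling and proliferation genes with a named probe were few. *IRS1*, the adaptor of the insulin and IGF receptors, had levels of 11.53, 11.05 and 11.40 in the controls and 8.60, 8.34 and 8.09 after FSH, and was 7.22-fold lower (adjusted p = 1.43e-07). *TRIB2*, a pseudokinase, was 3.21-fold lower. *PCNA*, the sliding clamp of DNA polymerase, had direct ratios of -1.48, -1.69 and -2.22 and was 3.62-fold lower (adjusted p = 5.43e-06). The study's real-time PCR found no significant difference for *IRS1*, *TRIB2* or *PCNA*. *CDKN2B*, an inhibitor of the cyclin D kinases, was a dim RefSeq-named probe, well above background in 2 of 6 control channels and in all FSH channels, and rose 1.27-fold. Its call ended without replicate 1 (adjusted p = 0.0195), without replicate 3 (adjusted p = 0.0214) and on the direct arrays alone (adjusted p = 0.0523). *GADD45A*, a growth arrest gene, was 1.56-fold lower with uneven direct ratios of -1.27, -0.56 and -0.37, and its call ended without replicate 2 (adjusted p = 0.0346), without replicate 3 (adjusted p = 0.0192) and with the replicate block (adjusted p = 0.0241).

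Metabolic genes with a named probe went in both directions. *ODC1*, the rate-limiting enzyme of polyamine synthesis, and *SMOX*, which oxidises spermine, rose 5.26-fold and 5.93-fold, with direct ratios of 2.48, 2.23 and 2.49 and of 2.65, 2.58 and 2.69. *GOT1*, of the same list, did not pass (-0.22), though it did with the processed signals (-0.45, adjusted p = 0.00993). *RBKS*, ribokinase, had direct ratios of 2.99, 3.00 and 2.89 and a mean level of 10.61 in the controls and 13.67 after FSH. The samples of each group lay close together, and the rise was 8.0-fold (log2 3.00 ± 0.09, adjusted p = 3.68e-08). The study's real-time PCR instead found *RBKS* lower after FSH. *PRDX2*, a peroxiredoxin that reduces hydrogen peroxide, rose 3.08-fold, and *CYBA*, an NADPH oxidase subunit on the same list, did not pass (0.07). *PTGES*, which makes prostaglandin E2, was 3.72-fold lower, with a direct ratio of -1.95 on all 3 arrays. *PGK2*, a glycolytic kinase, was 1.57-fold lower, and its call ended without replicate 1 (adjusted p = 0.028) and without replicate 3 (adjusted p = 0.016). *ATP5G1*, a subunit of ATP synthase, was 1.19-fold lower (adjusted p = 0.00875), with direct ratios of -0.48, -0.18 and -0.17. Its call ended with the replicate block (adjusted p = 0.0268), without replicate 1 (adjusted p = 0.107) and without replicate 2 (adjusted p = 0.0883).

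Other genes named by the study were mostly overexpressed. *SBSN*, suprabasin, had the second largest rise of the 45, 21.5-fold, with direct ratios of 4.43, 4.21 and 4.32. The calcium-dependent membrane-binding proteins *ANXA1* and *ANXA2* rose 3.09-fold and 4.24-fold. The direct ratios of *ANXA2* lay between 2.05 and 2.10, while those of *ANXA1* ranged from 1.12 to 2.11. The transporter *ABCC5* rose 5.19-fold, the actin-binding *MARCKSL1* 2.83-fold and the TWEAK receptor *TNFRSF12A* 3.03-fold. By the study's real-time PCR, *ABCC5*, *ANXA1* and *ANXA2* did not differ significantly, and *TNFRSF12A* was lower after FSH. The cap-binding factor *EIF4E* rose 2.28-fold and the kinase *ITPKA* 1.78-fold. The call of *EIF4E* ended without replicate 1 (adjusted p = 0.012) or replicate 3 (adjusted p = 0.0169), and that of *ITPKA* without replicate 3 (adjusted p = 0.0157).

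Among RefSeq-named transcripts, which were not chosen by their response, 4 of the 26 that rose and 3 of the 17 that fell did so by more than 2-fold, beside 447 of 3417 and 568 of 3748 among all called transcripts. Beside *FGF9*, *TSPO* and *AVPR2*, the fourth was *PDCD1LG2*, a ligand of the immune checkpoint receptor PD-1, with direct ratios of 1.49 and 2.24 in replicates 1 and 2 and a 3.51-fold rise. The strongest falls after *JUN* were those of *QDPR*, which regenerates tetrahydrobiopterin (2.67-fold, direct ratios -1.33, -1.32 and -1.67), and of *PDZD11*, a small PDZ domain protein (2.29-fold, direct ratios -1.24, -1.23 and -1.37). *PAQR8*, a membrane progestin receptor, was 1.72-fold lower, with direct ratios of -0.74, -0.86 and -0.80 (adjusted p = 4.1e-05), opposite in direction to *PGR*.

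Smaller differences were found for genes of varied function. *POMC*, the precursor of ACTH and endorphin, was 1.55-fold lower with direct ratios of -0.73, -0.56 and -0.67, and its call ended without replicate 3 (adjusted p = 0.0213). *ADCYAP1*, the peptide PACAP, rose 1.37-fold with 0.40, 0.53 and 0.49 on a dim probe, and its call ended without replicate 3 (adjusted p = 0.0321). *NPG4*, an antimicrobial protegrin, rose 1.77-fold and *PLIN1*, a coat protein of lipid droplets, 1.33-fold. *RXFP4*, *GLRB*, *B3GNT5*, *CA11*, *CRSP-2* and *IL2* rose by 1.22-fold to 1.40-fold. None of these 6 was called without replicate 3 (adjusted p between 0.012 for *CA11* and 0.0424 for *CRSP-2*), and the replicate block ended the calls of *RXFP4* (adjusted p = 0.0289) and *GLRB* (adjusted p = 0.0411). *PSME1*, *ST3GAL4*, *PIK3C3*, *PMAIP1*, *B3GALNT1*, *NTAN1* and *ITGA2B* were lower by 1.27-fold to 1.49-fold. Without replicate 3 only *B3GALNT1* of these was called, and with the replicate block the calls of *ST3GAL4* (adjusted p = 0.0167), *ITGA2B* (adjusted p = 0.0424) and *NTAN1* (adjusted p = 0.0955) ended. The 15 largest rises and 15 largest falls among called RefSeq-named transcripts with a value of 1 sign on all 3 direct arrays, which leaves out *PDCD1LG2*, make 30 transcripts. Of these, 21 kept their call without replicate 1, 22 of 29 with a value without replicate 2, 13 without replicate 3, and 22 of 29 with the replicate block.

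**Figure D4:**
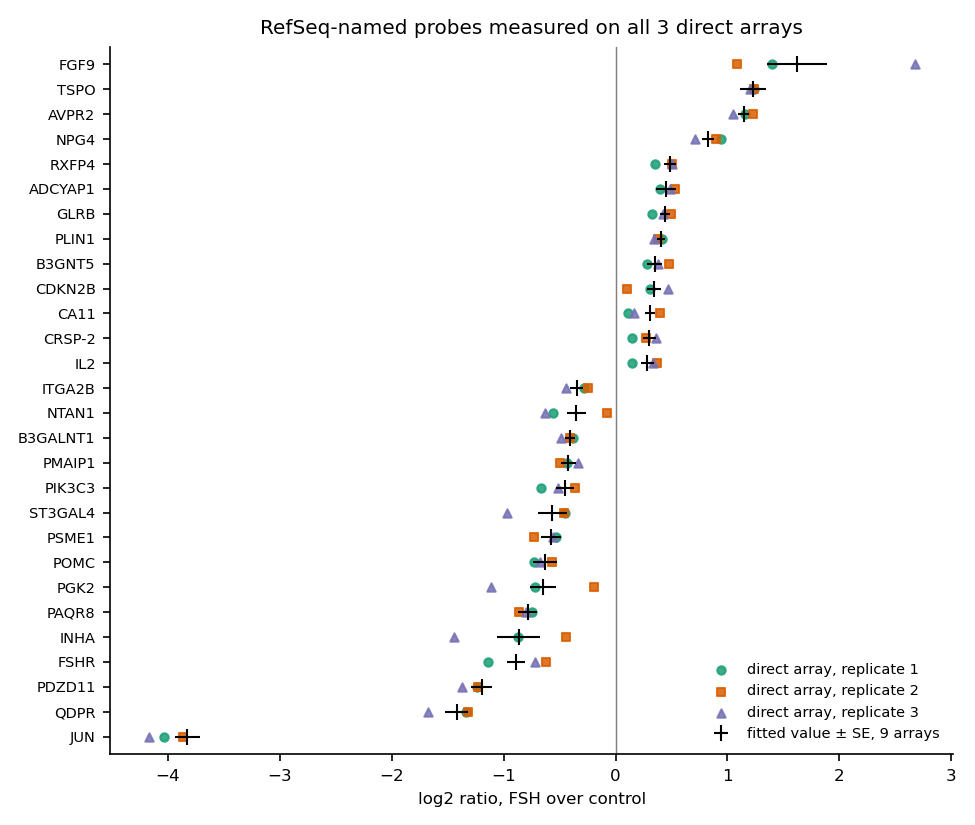
Log2 ratio of FSH over control for called RefSeq-named transcripts among the 15 largest rises and the 15 largest falls of those with 1 sign on all 3 direct arrays, which leaves out *PDCD1LG2*, measured on 2 of them. Coloured symbols are the 3 direct arrays and black bars the fitted value ± SE. Apart from *JUN* at -3.82, the fitted values plotted run from -1.42 for *QDPR* to 1.62 for *FGF9*.

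Markers of granulosa cells were present in all channels of both groups. *FSHR*, *INHA*, *FST*, *NR5A2* and *ESR2*, 5 of 17 on the list, were well above background in 6 of 6 control and 6 of 6 FSH channels, and 3 of them (*FSHR*, *FST* and *INHA*, the last not with the replicate block) were lower after FSH, against 19.2% of all transcripts. *FST* and *NR5A2* belong to the study's 45, so this count is not independent evidence. For other cell types few markers had a named probe. *BMP15*, of the oocyte, was well above background in 6 control and 5 FSH channels and did not pass (0.13, adjusted p = 0.0576). *CD4* of helper T cells, the leukocyte marker reported here, did not pass (0.12). *HBE1*, an embryonic globin on the erythrocyte list, did not pass (0.21), although it did under 4 alternatives, namely no background correction (adjusted p = 0.0065), the processed signals (adjusted p = 0.00406), a single loess curve per array (adjusted p = 0.00215) and median centring (adjusted p = 0.00836). Theca, endothelial and fibroblast markers had no named probe. What part other cell types had in the results was not tested.

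The largest responses of the whole array had no gene name here. The probe with the largest rise, which the files do not pair with a gene, had levels of 9.04, 8.97 and 8.38 in the controls and 16.14, 15.83 and 15.53 after FSH, with direct ratios of 5.82, 5.75 and 5.70. Its fitted ratio was 6.33 ± 0.30, and the FSH and control samples were far apart. The probe with the largest fall, likewise without a gene, had levels of 14.51, 14.91 and 15.03 in the controls and of at most 10.76 after FSH, direct ratios of -3.96, -4.03 and -4.21 and a fitted ratio of -3.90 ± 0.11, close to that of *JUN*.

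The array also allowed a look at how specific a ratio is to its probe. For 60 probes it held versions with 1, 2, 3, 5, 7 and 10 mismatched bases. The median log2 level in control cells fell from 12.08 for the perfect match to 9.35 with 3 mismatches and 7.97 with 10. The slope of the log2 ratio on that of the perfect match, fitted through the origin, was 0.92 with 1 mismatch, 0.87 with 3 and 0.81 with 7, and then 0.47 with 10. This slope rests largely on *CYP11A1*, which held 47.5% of the sum of squared perfect-match ratios. Without that probe, a choice made after seeing the data, it was 0.86 with 1 mismatch, 0.74 with 3, 0.54 with 7 and 0.39 with 10. Of the 21 perfect-match probes that were called, the version with 10 mismatches had the same direction for 15.

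*CYP11A1* is the only gene named here with such a series. Its perfect match had a fitted ratio of 3.89, and the versions with 1 to 5 mismatches had ratios between 3.81 and 3.89. With 7 mismatches the ratio was 4.30 and with 10 it was 2.15, with direct ratios of 2.30, 2.34 and 1.91. FSH-stimulated cells therefore gave more signal than controls even at a version with 10 mismatches, on all 3 direct arrays. The level in control cells was 12.49 at the perfect match and 11.03 at that version.

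**Figure D5:**
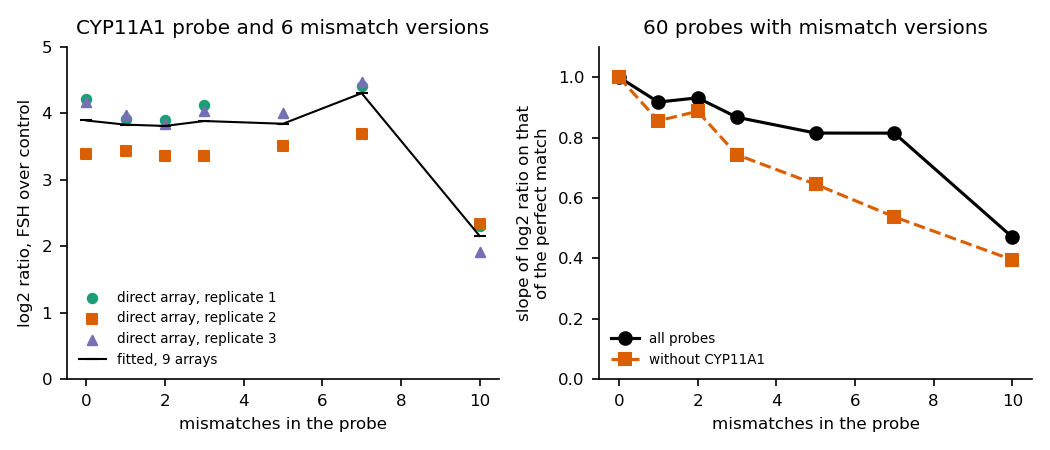
Left, log2 ratio of FSH over control for the *CYP11A1* probe (0 mismatches) and its mismatch versions, with the 3 direct arrays as symbols and the fitted value as a line. Right, slope of the log2 ratio of the mismatch versions on that of the perfect match over the 60 probes (black), which is 0.92 with 1 mismatch and 0.47 with 10, and without *CYP11A1* (orange, dashed), where it is 0.86 and 0.39.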

How the data were processed

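Scanner output deposited by the authors gives median signal and background intensity of each spot in both dyes, with an intensity processed by Agilent's software, and a separate deposited table gives their log2 ratios (red over green). Processed intensities and that table served as alternatives. Median signals were corrected by normexp (offset 50, not stated in the methods), then normalized by print-tip loess (48 subgrids with 432 spots each) and A-quantile in limma 3.58.1 (R 4.3.3). Neither control spots nor outliers were used in the loess. Outliers, 4.31% to 10.8% of an array, were then left out, and 37 probes with several spots were averaged. Arrays have no sequencing depth. The number of independent biological replicates, not that of arrays, limits the inference.

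The linear model over 9 arrays had terms for FSH, AREG/EREG and dye (6 residual degrees of freedom). It had no replicate term and treated the arrays as independent, although each RNA sample lay on 2 of them. Adjusted p-values come from this model unless an alternative is named. A probe was tested where its arrays could estimate FSH over control, which left out 449. The model was tested on simulated data, but no result of that test is reported or used here. The members, gene lists and the rule for named genes (the study's 45 genes, the 15 largest rises and falls among called RefSeq-named probes with 1 sign on the direct arrays, measured list members, and the extreme probes) were chosen with earlier results of these data known. A level of an RNA sample is the mean of its 2 channels.

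Deviations of the samples from treatment means correlated from 0.22 to 0.75 in the 9 same-numbered pairs and from -0.74 to 0.56 in the 18 others. These ranges overlap. Same-numbered samples also share arrays, and centring on treatment means lowers the other correlations. The values therefore cannot show whether replicate numbers pair the samples. Replicates were independently prepared per the labels. Alternatives changed the background correction, normalization, outlier spots, a filter on dim probes, the dye term, the arrays used, the replicate block, the authors' deposited log2 ratios and single replicates. The lists on heat shock proteins, cholesterol synthesis and reference genes had no named probe. No probe sequences or promoters were used here. Some genes are not reported here.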

Additional observations from a re-analysis of the deposited data

How the results depend on the processing

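No called gene of the study's 45 changed direction under any of the 18 alternatives, and 39 to 43 of the 43 kept their call under each of them except separate channels (37) and indirect arrays only (31). The total of 7165 calls was 1220 with separate channels and no replicate block (526 overexpressed, 694 underexpressed), 4253 on direct arrays only (1646 overexpressed) and 824 on indirect arrays only (362 overexpressed, 462 underexpressed). These calls shared 1216, 4094 and 822 transcripts with the reported ones, all in the same direction. Overexpressed transcripts numbered 2233 with the replicate block and 2216 within the scan day of replicates 2 and 3, which holds the arrays left without replicate 1. Leaving out 1 replicate gave 3841 to 5224 calls in all, 1620 to 2216 overexpressed and 2221 to 3008 underexpressed. Leaving out replicate 3 gave the lowest counts. The median standard error was 0.15 with separate channels, 0.12 on indirect arrays and 0.06 as reported.

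The count of 212 dye effects depended most on the normalization. It was 1661 with Agilent's processed signals, 1997 with a single loess per array and 6836 with median centring, but 3 among probes well above background only, 2 within the scan day of replicates 2 and 3, 1 to 7 with a replicate left out, and 0 on direct arrays only or indirect arrays only, where fewer arrays entered. The cause was not tested.

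The ratio of the *CYP11A1* probe with 10 mismatches was 2.04 on indirect arrays only. *ESR2*, which was not called, had a ratio of -0.09 with separate channels. Ratios near 0 that were not called also changed sign. *LIF* was -0.01 and *LEPR* -0.12 with separate channels, and *LEPR* was -0.05 with median centring or on indirect arrays only, -0.01 with the processed signals, with outlier spots kept or with the authors' deposited log2 ratios, and -0.02 to 0.03 with a replicate left out. Their causes were not tested. *FGF9* was 2.35 and *ITPKA* 1.42 with the processed signals. *SBSN* was 5.28 on indirect arrays only. The dimmest transcripts had the smallest ratios, and whether their brightness was the cause was not tested.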
